A study of Homo sapiens with 6 samples.

Results

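Trypsinogens, the secreted precursors of the digestive protease trypsin, were followed in SW480 cells together with genes of related proteases and of Kazal-type inhibitors. The set held 7 genes of the 56303 rows of the count table. PRSS1 encodes cationic trypsinogen, PRSS2 anionic trypsinogen and PRSS3 mesotrypsinogen. PRSS8 encodes prostasin, a membrane-anchored epithelial protease, and PRSS23 a secreted serine protease. SPINK1 encodes the pancreatic secretory trypsin inhibitor, and SPINK4 is a related Kazal-type gene known from intestinal goblet cells. The genes were chosen by their counts and RPKM in these same 6 libraries, so their differences between groups are described and not tested.

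SW480 is an established line of human colon adenocarcinoma cells. Messenger RNA was sequenced from 3 libraries of cells with a control hairpin (shCtrl, called WT in the labels) and 3 of cells with a hairpin against RBM39 (shRBM39), an RNA-binding splicing factor, to see how RBM39 depletion alters the transcriptome. All lines had received a lentiviral hairpin and had been selected with puromycin as stable clonal lines, and no other hairpin against RBM39 is labelled, so RBM39 loss cannot be told apart from a property of that hairpin or clone. The study's methods describe 3 replicate experiments per group without naming separate cultures or clones, and p-values measure the spread between these libraries, which may be technical.

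In the pancreas, acinar cells store trypsinogen as an inactive zymogen. Enteropeptidase, encoded by TMPRSS15, removes a short activation peptide in the gut, and the trypsin that forms activates further trypsinogen and the other zymogens. Inside the acinar cell, premature activation is opposed by SPINK1, which blocks the active site of trypsin, and by chymotrypsin C (CTRC), which degrades trypsinogen. Cathepsin B (CTSB) can activate trypsinogen in lysosomes. Outside the pancreas, trypsins can cleave protease-activated receptors such as PAR2 (F2RL1), and mesotrypsin is known for its resistance to most trypsin inhibitors.

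The cleavage site that defines a trypsinogen is shown first, because the 3 genes are near-identical copies and reads have to be assigned among them. Bases 65 to 94 of the canonical GENCODE v44 transcripts are printed, with capitals on the 4 aspartate codons and the lysine codon after which enteropeptidase cuts.
PRSS1: tttGATGATGATGACAAGatcgttgggggc
PRSS2: tttGATGATGATGACAAGatcgttgggggc
PRSS3: tttGACGATGATGACAAGattgttgggggc
PRSS1 and PRSS2 were identical over these 30 bases, and PRSS3 differed from them at synonymous positions. Across the aligned canonical transcripts, PRSS1 and PRSS2 were 92.7% identical, PRSS1 and PRSS3 91.5%, and PRSS2 and PRSS3 93.6%. SPINK1 and SPINK4 were 63.1% identical.

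The promoters of the trypsinogens were compared because PRSS1 and PRSS2 differed most between groups and PRSS3 less. The 150 bases before the RefSeq start (GRCh38.p14) are printed, with capitals on TATAAA and on CACCTG. The latter lies on the minus strand here, so the printed plus strand reads CAGGTG. It is 1 of the E-box forms bound by basic helix-loop-helix factors.
PRSS1, chr7:142749322-142749471, plus strand: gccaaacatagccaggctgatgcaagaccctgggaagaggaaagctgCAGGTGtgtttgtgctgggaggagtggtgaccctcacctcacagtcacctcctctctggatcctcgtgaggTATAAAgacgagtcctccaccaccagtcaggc
PRSS2, chr7:142770820-142770969, plus strand: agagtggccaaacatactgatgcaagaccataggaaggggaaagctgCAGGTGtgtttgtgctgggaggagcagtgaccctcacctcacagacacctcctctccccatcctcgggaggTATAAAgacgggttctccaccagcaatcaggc
PRSS3, chr9:33795411-33795560, plus strand: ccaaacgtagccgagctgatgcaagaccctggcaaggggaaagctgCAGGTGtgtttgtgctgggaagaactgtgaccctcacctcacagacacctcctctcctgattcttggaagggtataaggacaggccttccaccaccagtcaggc
The window of PRSS1 was 90.3% identical to that of PRSS2, and that of PRSS3 was 85.9% identical to PRSS1 and 86.7% to PRSS2. TATAAA stood at -32 in PRSS1 and PRSS2. The PRSS3 window held no exact TATAAA but read tataag at the matching place. CACCTG was present in all 3, at -103, -103 and -104. Searched on both strands of 35116 RefSeq promoters of the same length, TATAAA occurred in 6.71% and CACCTG in 10.6%, and these motifs do not overlap each other. The starts used for PRSS2 and PRSS3 lie inside the spans that the count table gives these genes, which also hold exons upstream. Promoters were matched for 6 of the 7 genes. PRSS8 had no entry. Among the other matched promoters, SPINK4 held TATAAA at -29, SPINK1 held CACCTG 2 times, and PRSS23 held neither. Whether these motifs bear on the differences between groups was not tested.

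The libraries held 18042924 to 20428901 counts, and 18243 genes passed the filter on low counts. RBM39 itself (chromosome 20, 35703609 to 35742312, GRCh38) had 441, 448 and 435 CPM (counts relative to library size, scaled by TMM factors) in shCtrl and 266, 276 and 292 in shRBM39, a fall of 37.0% (log2 fold change -0.67, SE 0.04, edgeR adjusted p = 1.24e-16). Of all tested genes, 59.1% passed an adjusted p of 0.05 in edgeR's quasi-likelihood test (29.2% higher and 29.9% lower in shRBM39), so a gene past the threshold was the common case. Of all calls 49.4% were higher, and 33.9% under library totals alone. The summed level of 14 colon epithelial markers was 11725 to 12553 CPM in shCtrl and 14777 to 15351 in shRBM39. Of the 10 of them that were tested, 3 passed as higher and 4 as lower, with a median log2 fold change of -0.04. The summed level of 8 leukocyte markers was 16.8 to 18.6 and 18.4 to 20.7 CPM, with the pan-leukocyte gene PTPRC at 0 in every library. That of 7 fibroblast markers was 13.1 to 14.2 and 18.9 to 19.9 CPM, and INS and GCG, the islet hormones, were at 0 throughout.

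In shCtrl cells, PRSS2 was by far the most abundant of the 7 genes. Its deposited RPKM, a level per depth and per merged exon length of the count table, ranked 122 of 33685 rows, and PRSS3 ranked 1611. Mean RPKM fell in the order PRSS2 (375 ± 2.26, SD, n = 3), PRSS3 (30.3 ± 0.889), PRSS1 (8.99 ± 0.386), PRSS23 (0.768 ± 0.0301), PRSS8 (0.257 ± 0.0707), SPINK1 (0.0916 ± 0.0215) and SPINK4 (0.0513 ± 0.0444). Neighbours in this order did not overlap between libraries except SPINK1 and SPINK4. In shRBM39 cells, PRSS23 (0.891 ± 0.0718) stood above PRSS1 (0.436 ± 0.0927), and the order of PRSS2 (73.8 ± 5.89) before PRSS3 (18.5 ± 0.696) was kept. SW480 cells thus carried transcripts of the trypsinogens far above those of SPINK1 and SPINK4 in both groups. This did not hold for every protease inhibitor gene. SPINT2 had a mean of 36.5 RPKM in shCtrl and 32.0 in shRBM39, SPINT1 28.0 and 19.1, and SERPINA1 15.4 and 13.9, all above PRSS1. Of 41 other listed inhibitor genes, 18 stayed under 10 counts in every library. Fewer cells with a transcript and less transcript per cell cannot be told apart in bulk libraries.

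**Figure D1:**
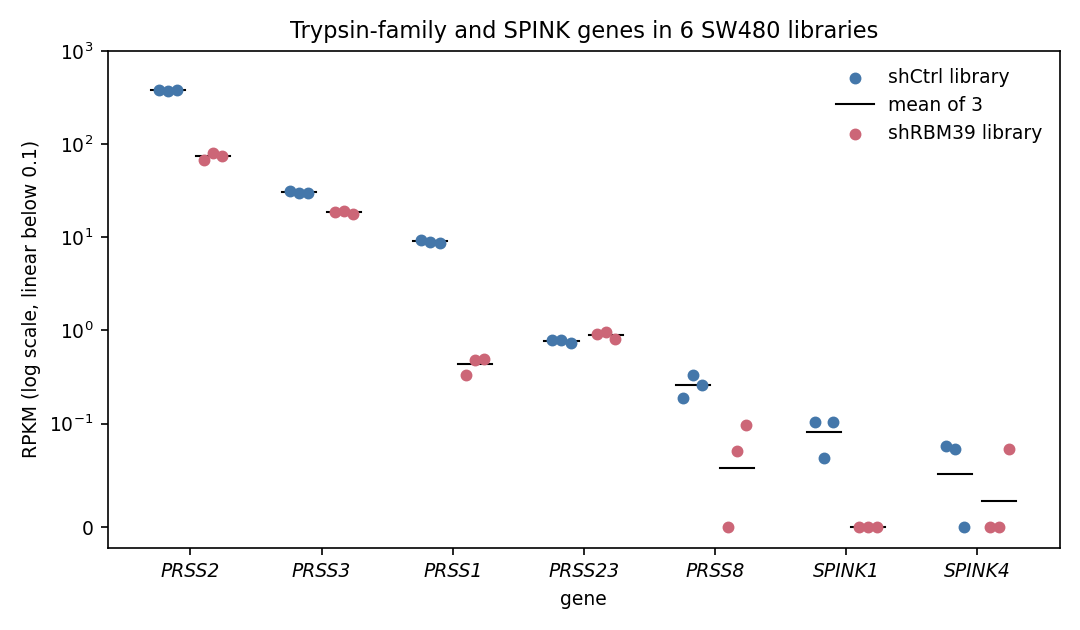
RPKM of the 7 genes (logarithmic axis, linear below 0.1) in each shCtrl and shRBM39 library, with lines at the means of 3 libraries. PRSS2, PRSS3, PRSS1 and PRSS8 lie lower in shRBM39 without overlap, PRSS23 lies higher, and SPINK1 is at 0 in all 3 shRBM39 libraries.

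The groups did not overlap for 6 of the 7 genes, with SPINK4 the exception. Of the 5 genes that passed the filter, 4 were lower and 1 was higher in shRBM39 without overlap, where 63.3% of all tested genes did not overlap (32.3% lower and 31.0% higher). PRSS8 passed the filter only through its shCtrl libraries, and SPINK1 and SPINK4 did not pass it. PRSS1, PRSS2 and PRSS8 had a log2 fold change of -2 or less, as did 0.417% of tested genes. The median log2 fold change of all tested genes was -0.01. These counts follow from how the genes were chosen.

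PRSS1 (chromosome 7, 142749468 to 142763997, plus strand) had 382, 376 and 349 counts in shCtrl replicates 1 to 3 and 14, 18 and 21 in shRBM39. In RPKM these were 9.40, 8.93 and 8.63 against 0.329, 0.479 and 0.499. The highest shRBM39 library lay far below the lowest shCtrl library. The fitted log2 fold change was -4.24 (SE 0.14), 18.9-fold lower, and was the lowest of all 18243 tested genes. It fell to rank 17197 of 33685 rows by mean RPKM, from 4872 in shCtrl.

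PRSS2 (chromosome 7, 142760398 to 142774564, plus strand) carried most of the trypsinogen signal. Its counts were 9274, 9487 and 9178 in shCtrl and 1738, 1801 and 1897 in shRBM39, and its RPKM was 377, 373 and 375 against 67.6, 79.3 and 74.5. All shCtrl libraries lay close together and well above the shRBM39 libraries, whose spread was wider. The log2 fold change was -2.22 (SE 0.04), 4.67-fold lower, the 45th lowest of the tested genes. PRSS2 still ranked 668 by RPKM in shRBM39, above PRSS3 and every other gene of the set.

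PRSS3 (chromosome 9, 33750466 to 33799231, plus strand), the trypsinogen gene outside the chromosome 7 locus, was lower by less. Its counts were 1018, 997 and 970 in shCtrl and 626, 579 and 603 in shRBM39, and its RPKM was 31.3, 29.6 and 30.0 against 18.4, 19.3 and 17.9. The groups were separate, with a gap larger than the spread within either. The log2 fold change was -0.59 (SE 0.05), 1.50-fold lower, at percentile 11.8 of the tested genes. A change under -0.5 was found in 15.4% of them.

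The makeup of the trypsinogen pool differed accordingly. PRSS1, PRSS2 and PRSS3 together had 546, 537 and 540 CPM (of the library total, without TMM factors) in shCtrl and 116, 133 and 125 in shRBM39, a log2 fold change of the summed counts of -1.996 (SE 0.04). PRSS2 made up 86.9%, 87.4% and 87.4% of these counts in shCtrl and 73.1%, 75.1% and 75.2% in shRBM39. The share of PRSS3 was 9.54%, 9.18% and 9.24% in shCtrl and 26.3%, 24.1% and 23.9% in shRBM39. That of PRSS1 was 3.58% (95% exact binomial interval 3.23 to 3.95) in shCtrl replicate 1 and 0.589% (0.322 to 0.986) in shRBM39 replicate 1. Such intervals cover counting error only. Per length, PRSS2 exceeded PRSS3 by 12.04 to 12.6 times in shCtrl and by 3.67 to 4.16 times in shRBM39, and exceeded PRSS1 by 40.1 to 43.5 and 149 to 205 times. These ratios use the merged exon lengths of the count table, 2081 bases for PRSS1, 1259 for PRSS2 and 1664 for PRSS3. The canonical transcripts all had 808 or 809 bases. By counts alone, PRSS2 exceeded PRSS3 by 9.11 to 9.52 times in shCtrl and by 2.78 to 3.15 times in shRBM39.

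**Figure D2:**
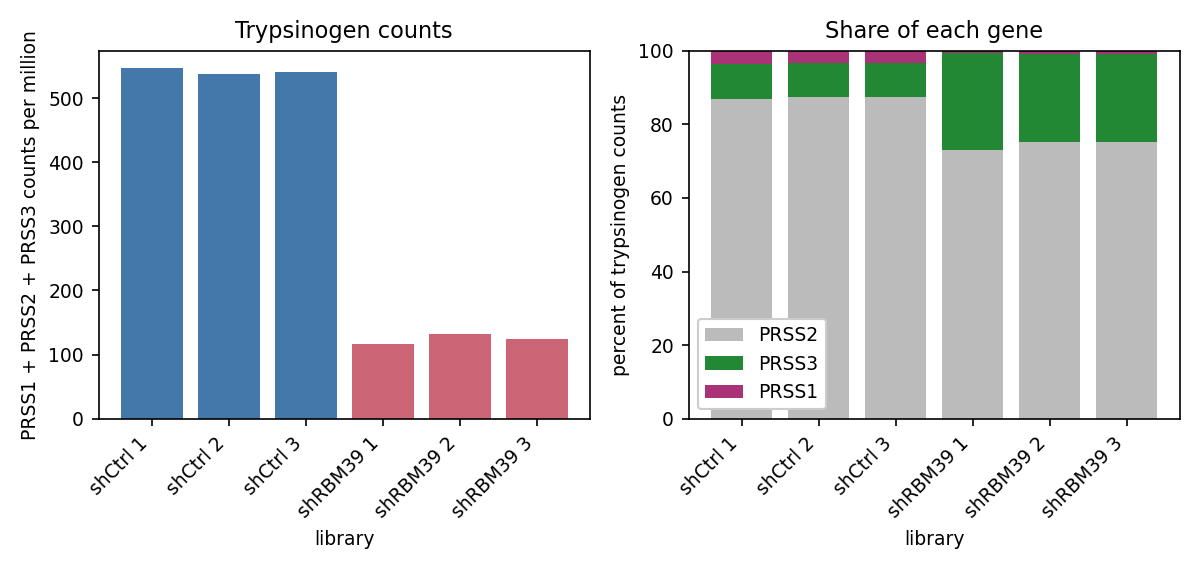
Left, summed PRSS1, PRSS2 and PRSS3 as CPM of each library total, and right, the percent of these counts from each gene. The sum lies between 537 and 546 in shCtrl and between 116 and 133 in shRBM39, where the PRSS3 share is 23.9% to 26.3%.

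Reads of the 3 trypsinogens can be mistaken for each other, and how multi-mapped reads were treated is not stated. In the canonical transcripts, exact windows of 50 bases also found in another gene's transcript made up 3.42% of PRSS1, 10.5% of PRSS2 and 4.35% of PRSS3. They made up 0% of PRSS8, PRSS23, SPINK1 and SPINK4. At 100 bases the shares for PRSS1, PRSS2 and PRSS3 were 0%, 0.845% and 0%. The canonical transcripts of these 3 have 808 or 809 bases. Their counts were taken over merged exons of 2081, 1259 and 1664 bases. Exon sequence outside the canonical transcripts was not screened. The spans of PRSS1 and PRSS2 overlap on chromosome 7, but the exons that the count table gives them share 0 bases. Both instead overlap the pseudogene PRSS3P1, PRSS1 by 151 exon bases (7.26% of its own) and PRSS2 by 40 (3.18%). PRSS3P1 had 16, 16 and 15 counts in shCtrl and 2 in each shRBM39 library (log2 fold change -2.76, SE 0.47, edgeR adjusted p = 4.86e-06). The pseudogenes TRY2P and PRSS3P3 were at 0, and PRSS3P2, also listed, had no row in the count table. Windows of PRSS3 were shared with PRSS3P4 too, which was not among the listed pseudogenes. With PRSS1 and PRSS2 summed, which is blind to any exchange of reads between them, counts were 9656, 9863 and 9527 against 1752, 1819 and 1918 (log2 fold change -2.27, SE 0.04). The counts of PRSS1 were 3.66% to 3.96% of that sum in shCtrl and 0.799% to 1.09% in shRBM39. Whether reads were exchanged between these genes was not tested.

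**Figure D3:**
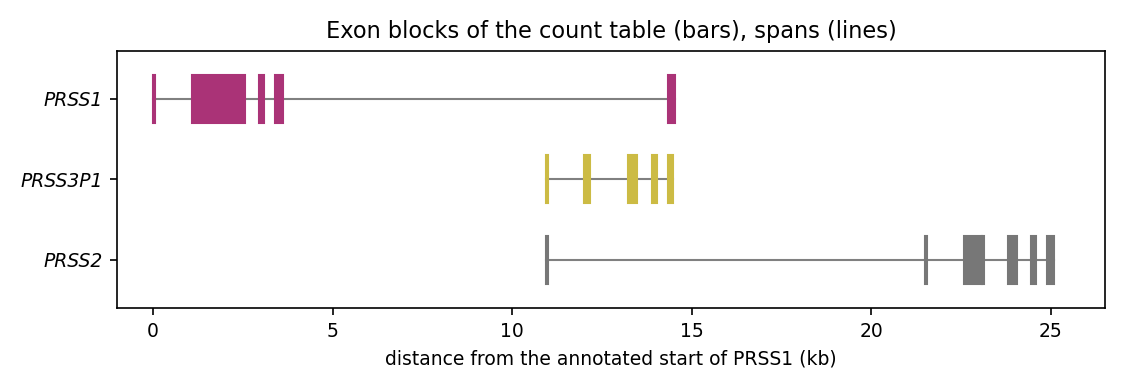
Merged exon blocks of PRSS1, PRSS3P1 and PRSS2 as the count table gives them, against distance in kb from the start of PRSS1. The spans of PRSS1 and PRSS2 overlap while their exon blocks do not, and the last PRSS1 block and first PRSS2 block lie over exons of PRSS3P1.

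The chromosome 7 locus lies within the T cell receptor beta region. Of 104 rows that start within 500 kb of PRSS1, 71 had 0 counts, and 15 genes other than PRSS1 and PRSS2 were tested. Of these, 10 passed the test as higher and 2, PRSS3P1 and the calcium channel gene TRPV6 (log2 fold change -0.35, SE 0.13, adjusted p = 0.0191), as lower. Over all tested genes, 29.2% passed as higher and 29.9% as lower. TRPV6 lost its call under DESeq2 (-0.34) and without shCtrl replicate 3 (-0.29), shRBM39 replicate 1 (-0.31) or shRBM39 replicate 3 (-0.33). EPHB6, a kinase-defective ephrin receptor gene, rose from 68.1 ± 0.978 to 98.1 ± 3.60 CPM (log2 fold change 0.53, SE 0.04, adjusted p = 8.15e-13). The constant segment TRBC2 rose from 58.6 ± 0.439 to 88.5 ± 1.96 CPM (log2 fold change 0.59, SE 0.04, adjusted p = 4.02e-14), while the T cell genes CD3E and CD3D had at most 1 count in a library. Of the 10 higher rows, 7 were TRBJ2 joining segments inside the annotated span of TRBC2, which also spans PRSS1 and PRSS2, and they may share its reads. GSTK1, a glutathione transferase gene at the far end of the window, had a log2 fold change of 0.01 (SE 0.04). Among 10 tested genes of the list of chromosome 7 neighbours, which shares rows with this window but holds no TRBJ2 segment, 5 passed as higher and 3 as lower.

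**Figure D4:**
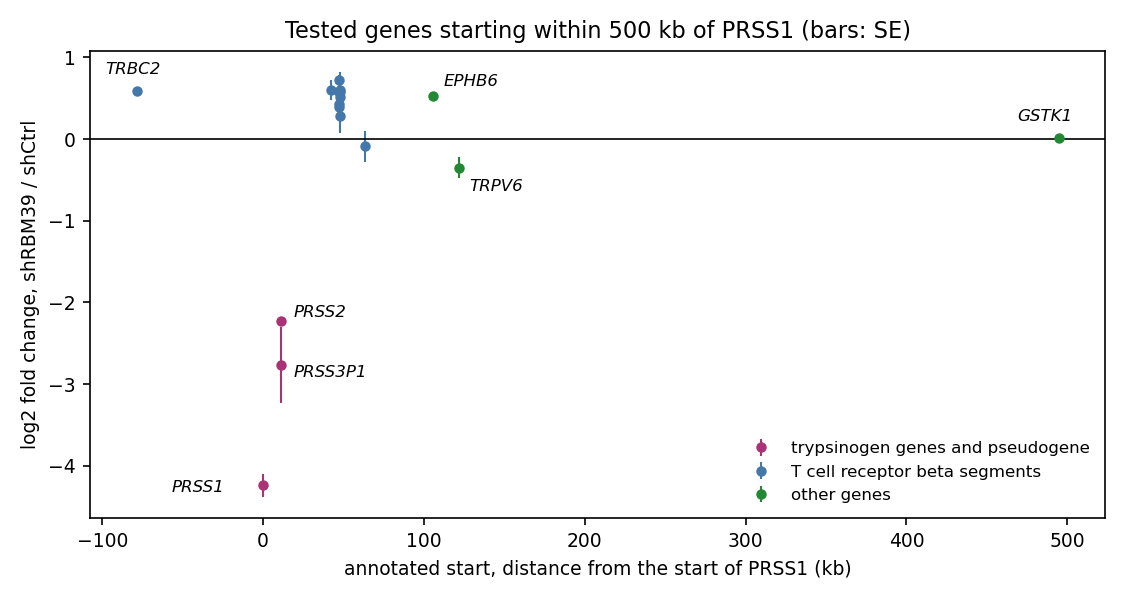
Log2 fold change of shRBM39 against shCtrl (bars, SE) for tested genes by distance in kb of their annotated start from that of PRSS1. PRSS1, PRSS3P1 and PRSS2 lie at -4.24, -2.76 and -2.22, and the T cell receptor segments and EPHB6 lie mostly above 0.

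PRSS8 (chromosome 16, 31131433 to 31135762, minus strand) was scarce. It had 11, 20 and 15 counts in shCtrl and 0, 4 and 6 in shRBM39, or 0.187, 0.329 and 0.256 RPKM against 0, 0.0737 and 0.0985. The groups did not overlap, at a depth where a library's count of 0 allows up to 3 counts. The log2 fold change was -2.03 (SE 0.49), with an error over 3 times that of PRSS1. Its fold without any 1 library ranged from -2.70 to -1.42 on the log2 scale.

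PRSS23 (chromosome 11, 86791059 to 86952910, plus strand) was the exception in direction. Counts were 180, 186 and 167 in shCtrl and 217, 202 and 193 in shRBM39, and RPKM was 0.786, 0.784 and 0.733 against 0.906, 0.955 and 0.813. The lowest shRBM39 library stood just above the highest shCtrl library. The log2 fold change was 0.34 (SE 0.09), 26.2% higher.

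The inhibitor genes SPINK1 and SPINK4 were at the limit of detection. SPINK1 (chromosome 5, 147824568 to 147831786, minus strand) had 3, 2 and 3 counts in shCtrl and 0 in each shRBM39 library, 8 of 59192962 against 0 of 58706366 counts. The shCtrl level was 0.135 CPM of the library totals (95% exact Poisson interval 0.0583 to 0.266), and the shRBM39 total of 0 has an exact upper limit of 0.0628. These limits overlap slightly, which does not decide whether the levels differ, and the difference was not tested. SPINK4 (chromosome 9, 33218365 to 33248567, plus strand) had 1, 1 and 0 counts against 0, 0 and 1, and no difference was detectable at this depth. At these levels a few reads decide whether a gene is seen at all.

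Among the 3 genes with the lowest fold changes, shRBM39 replicate 1 was the lowest library in RPKM for PRSS1, PRSS2 and PRSS8, but not for PRSS3, where replicate 3 was lowest. Each comparison without that library left the fold changes of PRSS1 and PRSS2 within -4.35 to -4.06 and -2.27 to -2.16, the ranges over all 6 omissions.

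The regulators and partners of trypsin did not share 1 direction. TMPRSS15, the enteropeptidase gene, was low, at 0.682 ± 0.139 CPM in shCtrl and 0.478 ± 0.122 in shRBM39, with overlapping groups (log2 fold change -0.50, SE 0.35, adjusted p = 0.225). CTRC had at most 4 counts in any library. CTSB fell from 191 ± 5.64 to 109 ± 8.08 CPM (log2 fold change -0.80, SE 0.04, adjusted p = 2.45e-17), whereas the cathepsin genes CTSL and CTSD rose by 0.57 and 0.48 on the log2 scale. F2RL1 did not pass the test (0.11, SE 0.10, adjusted p = 0.338) and took a sign below 0 under other scalings. SCNN1A, a subunit gene of the epithelial sodium channel that prostasin can activate, had a log2 fold change of -0.07 (SE 0.05, adjusted p = 0.228).

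ST14, which encodes matriptase, a membrane protease that acts together with prostasin in epithelia, had 138, 135 and 109 CPM in shCtrl and 89.0, 86.0 and 86.6 in shRBM39 (log2 fold change -0.55, SE 0.05, adjusted p = 1.42e-10). Its inhibitor gene SPINT1 fell from 95.02 ± 0.618 to 70.9 ± 1.63 CPM (log2 fold change -0.42, SE 0.04, adjusted p = 8.27e-11). The related SPINT2 had a log2 fold change of -0.07 (SE 0.04, adjusted p = 0.126) and passed the test as lower only under other scalings.

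Other serine proteases, most but not all of the trypsin fold, were tested for 29 of 49 listed genes. Of these 17 (58.6%, against 59.1% of all tested genes) passed, 7 higher and 10 lower, with a median log2 fold change of -0.01. The coagulation factor genes F7 and F10 were lower by -1.77 (SE 0.22, adjusted p = 1.11e-08) and -0.92 (SE 0.08, adjusted p = 5.49e-12), and so were the hepsin gene HPN (-1.23) and TMPRSS9 (-1.02). The plasminogen activator genes PLAT (1.17, SE 0.16, adjusted p = 1.53e-07) and PLAU (0.63) rose, as did KLK10 (0.35) and TMPRSS2 (0.23), which both lost their calls under library totals alone (0.23 and 0.11). Under that scaling 4 listed proteases were higher and 11 lower, and with at least 10 counts in every library 4 and 9.

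Other protease inhibitors were tested for 22 of 41 listed genes. Of these 12 (54.5%, against 59.1% of all tested genes) passed, 4 higher and 8 lower, with a median of -0.07. A2M, a broad-spectrum protease trap, fell by 2.90 on the log2 scale (SE 0.28, adjusted p = 4.34e-11), SLPI, an inhibitor of neutrophil elastase, by 1.99, and SPINK5, a multidomain Kazal-type inhibitor, by 0.85. SERPING1, the C1 inhibitor gene, rose by 1.05 and WFDC2 by 0.61, the latter a call lost under DESeq2 (0.62) and without shRBM39 replicate 3 (0.52). The other higher genes, CSTB (0.58) and SERPINH1 (0.31), encode an inhibitor of cysteine proteases and a collagen chaperone.

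**Figure D5:**
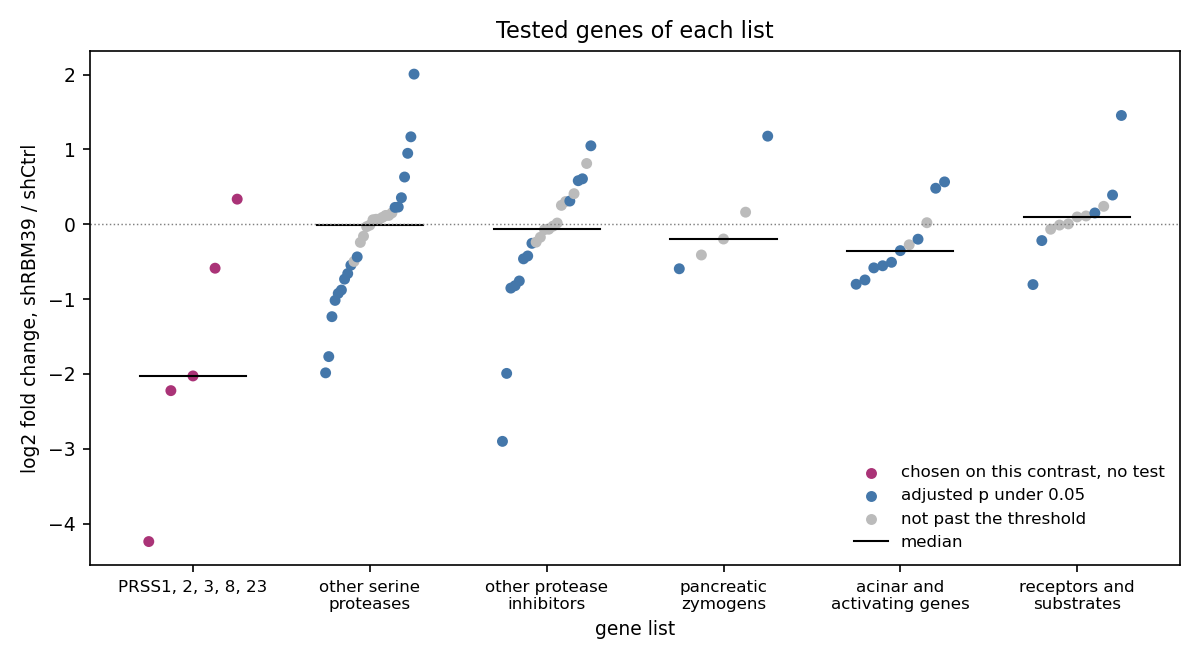
Log2 fold change of shRBM39 against shCtrl for each tested gene of 6 lists, with lines at list medians. The 5 tested genes of the trypsinogen set are drawn without a test, and the medians of the other serine proteases and inhibitors are -0.01 and -0.07.

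Genes of the pancreatic enzymes that accompany trypsinogen in acinar cells were mostly at or near 0 counts. Of 31 listed zymogen and secreted enzyme genes, 12 were at 0 in every library, among them PNLIP, CPB1, CLPS, GP2 and SYCN, and 26 stayed under 10 counts in every library. Of the 5 tested, PNLIPRP2 (1.18, groups overlapping, chosen after its values were seen) and CUZD1 (-0.59) passed the test, a count of 2 that fell to 0 with DESeq2 and to 0 without shCtrl replicate 2. The acinar factor gene PTF1A had 0 counts. Of 19 listed acinar and trypsinogen-activating genes, 8 were not tested. Of the 11 tested, 9 (81.8%, against 59.1% of all tested genes) passed, 2 higher and 7 lower, with a median of -0.35. BHLHA15 (MIST1), a basic helix-loop-helix factor of secretory cells, fell from 5.08 to 3.03 CPM (log2 fold change -0.74, SE 0.14, adjusted p = 3.69e-05), XBP1, of the secretory stress response, fell by 0.58 and FOXA2, a foregut endoderm factor, by 0.55.

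Receptors, their signalling partners and protease substrates were tested for 11 of 21 genes. Of these 5 (45.5%, against 59.1% of all tested genes) passed, with a median of 0.10. They were 3 higher and 2 lower (2 and 3 under library totals alone). F2RL3, the PAR4 gene, rose by 1.45 on the log2 scale (SE 0.24, adjusted p = 3.1e-06), and ARRB1, an arrestin gene, by 0.39. GNA11, a G protein gene, passed at 0.15 but not under upper-quartile scaling (0.12), library totals (0.03) or DESeq2 (0.16). MMP14, a membrane metalloprotease gene, fell by 0.81 (adjusted p = 9.64e-07) and the G protein gene GNAQ by 0.22, a call lost under DESeq2 (-0.21).

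Likeness was measured as the Euclidean distance of log2 CPM centred on each gene's mean over the 6 libraries, among 16266 tested genes of at least 1 CPM, where PRSS8 did not enter. Nearest to PRSS1 were FREM1 (distance 0.411, log2 fold change -3.95), LINC01239 (0.826, -3.97), UNC5B (1.03, -3.52), PSD2 (1.54, -3.05) and A2M (1.82, -2.90). Nearest to PRSS2 were KDM7A (0.105, -2.17) and G0S2 (0.275, -2.17), and nearest to PRSS3 were ITGB4 (0.0443, -0.57) and TMEM2 (0.0485, -0.60). PRSS23 was nearest to RP11-977G19.11 (0.0947) and LRRC45 (0.0966). The 5 genes near PRSS1 were at larger distances than those near the other genes. This distance largely follows the fold change, and that of PRSS1 was the lowest of all tested genes, so no neighbour could reach it.

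The deposited splicing records, which list only events with a difference, named none of the 7 genes among 1582 records of 1198 genes. Events without a record were not analysed here.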

How the data were processed

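Messenger RNA of SW480 cells was sequenced from stranded libraries with unique identifiers, 3 with shCtrl and 3 with shRBM39. Groups and replicate numbers came from the sample titles, and columns named NC were read as shCtrl, the only control. Raw counts by gene symbol were deposited by the authors, and the submitters' processing notes name Trimmomatic 0.36, STAR 2.5.3a, featureCounts of Subread 1.5.1, edgeR 3.12.1 and GRCh38. The annotation release, the strand setting, the treatment of multi-mapped reads and the collapsing of unique identifiers are not given in the sources used here. Deposited RPKM values cover 33685 rows, which recomputation from counts matched with a relative error of at most 1.21e-13, so they add no measurement. The deposited splicing records were used for gene names only, with none of their p-values or levels, and a tally of events was not used.

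Genes were filtered with filterByExpr and scaled by TMM in edgeR 4.0.16 (R 4.3.3). The groups were compared by quasi-likelihood F tests without further covariates. P-values were adjusted by Benjamini-Hochberg across the 18243 genes and called at 0.05. CPM include TMM factors. Standard errors derive from the fold change and its F statistic. The biological coefficient of variation was 0.035, and replicates differed beyond sampling noise (chi-square per degree of freedom 2.01 to 3.90). On simulated counts for shRBM39 against shCtrl, 97% of genes changed 2-fold and 76% of those changed by 0.5 on the log2 scale were recovered and 0.022% of unchanged genes called, among 18206 tested. The simulation changed a small share of genes, none of very low count, in both directions, and gave all genes the same dispersion. It therefore does not cover the broad change, the scaling or the gene-specific spread of these data. Of the exons the table gives PRSS1, PRSS2 and PRSS3, 15 of 21, 13 of 17 and 15 of 19 were identical to a GENCODE v44 exon. Promoters came from RefSeq.

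The 7 genes and all gene lists were chosen with earlier results of these data known. Other named genes were up to 4 in each direction per list, by fold change, past the threshold with a mean of 1 CPM or more and groups that did not overlap, plus TMPRSS15, CTRC, CTSB, ST14, SPINT1, SPINT2, F2RL1, SCNN1A, EPHB6, TRPV6, UBE2R2, FZD4 and RBM39. Some genes that this rule names are not reported here. Likeness used log2(CPM + 0.01). The alternatives tried were summed trypsinogen counts, library totals alone, upper-quartile scaling, DESeq2 1.42.0, no filter or a minimum of 10 counts per library, limma-trend (limma 3.58.1) with RPKM pseudocounts of 1 and 0.1, a replicate block, omission of each replicate and an adjusted p under 0.01.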

Additional observations from a re-analysis of the deposited data

How the results depend on the processing

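Directions of the 5 tested genes of the set held under every alternative run, and their sizes depended on scaling. With library totals alone, the log2 fold change was -2.35 for PRSS2, -0.71 for PRSS3 and 0.21 for PRSS23. That scaling moved the median of all genes by -0.12 and the share of higher genes among all calls from 49.4% to 33.9%. On log2(RPKM + 1) the values were -2.80 for PRSS1, -2.33 for PRSS2, -0.68 for PRSS3, -0.25 for PRSS8 and 0.10 for PRSS23, and 33.6% of calls were higher. On log2(RPKM + 0.1) they were -1.22 for PRSS8, -2.35 for PRSS2, -0.71 for PRSS3 and 0.19 for PRSS23. RPKM carry no TMM factors, so these fits change the scaling as well as the pseudocount. PRSS8 was not tested with at least 10 counts in every library. Summing the counts of PRSS1 and PRSS2 gave -2.27, and summing all 3 trypsinogens -1.996, against -4.24 for PRSS1, -2.22 for PRSS2 and -0.59 for PRSS3 alone. F2RL1, which was not called, changed sign to -0.013 with library totals, -0.0066 with an RPKM pseudocount of 1 and -0.0074 with 0.1. The cause was not tested.

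Zymogen genes called numbered 2, and 3 under upper-quartile scaling or library totals alone. They numbered 1 with at least 10 counts in every library, 1 at an adjusted p under 0.01 and 0 with DESeq2. Receptor and substrate genes called were 5, and 6 with no filter on low counts. They were 4 under upper-quartile scaling or at an adjusted p under 0.01, and 3 with DESeq2. With each replicate left out, PRSS1 ranged from -4.35 to -4.06, PRSS2 from -2.27 to -2.16, PRSS3 from -0.61 to -0.55, PRSS8 from -2.70 to -1.42 and PRSS23 from 0.29 to 0.40. Genes called ranged from 10138 to 10263 over all genes, 14 to 16 among proteases, 12 to 13 among inhibitors, 0 to 3 among zymogens (0 without shCtrl replicate 2 and 1 without shRBM39 replicate 1), 8 to 8 among acinar genes, 5 to 6 among receptors, 6 to 8 among neighbours of PRSS1 and PRSS2, 19 to 22 among the other neighbours and 65 to 73 over these lists together. Of 61 named genes with a fit, 48 kept their call and direction in every alternative in which they were tested. An alternative whose filter left a gene out was not counted for that gene. TRPV6 lost its call without shCtrl replicate 3 (-0.29), shRBM39 replicate 1 (-0.31) or shRBM39 replicate 3 (-0.33), and GNA11 without shCtrl replicate 1 (0.15) or 2 (0.14) or shRBM39 replicate 1 (0.10) or 2 (0.16). CUZD1 lost its call without shCtrl replicate 2 (-0.47) or shRBM39 replicate 1 (-0.46), TMEM139 without shCtrl replicate 3 (-0.11) or shRBM39 replicate 1 (-0.11), TMPRSS2 without shRBM39 replicate 1 (0.16) and WFDC2 without shRBM39 replicate 3 (0.52). VIL1 was no longer called without shCtrl replicate 1 or 3 (-0.09) or shRBM39 replicate 1 (-0.09) or 3 (-0.07), and SCNN1A was called as lower without shCtrl replicate 1 (-0.12).

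Replicate numbers are shared by the groups, but same-numbered libraries did not deviate together (correlations 0.0061, -0.028 and 0.00011). With the replicate block, 10810 genes were called against 10790, and 71 of the listed genes against 72. Depth limits PRSS8, SPINK1 and SPINK4, where a count of 0 allows up to 3 counts in a library.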

Other observations

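Neighbours of the other genes of the set were described by the same fit. Of 27 tested genes around PRSS3, PRSS8, PRSS23, SPINK1 and SPINK4, 21 (77.8%, against 59.1% of all tested genes) passed the test. They were 13 higher and 8 lower, and the median log2 fold change of the 27 was 0.20. The majority turned with scaling, to 9 higher and 12 lower under library totals alone, and to 8 and 10 or 7 and 10 in limma-trend with RPKM pseudocounts of 1 and 0.1. Near PRSS3 and SPINK4 on chromosome 9, AQP7, an aquaglyceroporin gene, was lower (-1.09, adjusted p = 1.9e-10), as were B4GALT1 (-0.75), UBE2R2-AS1 (-0.59, call lost under DESeq2) and UBE2R2 (-0.36, adjusted p = 6.79e-08), while NOL6 was higher (0.56). UBE2R2 and UBE2R2-AS1 may share reads. Near PRSS23, the Wnt receptor gene FZD4 was higher (0.61, adjusted p = 0.000167), and near SPINK1, DPYSL3 was higher (0.83) and SPINK5 lower (-0.85). Farther from PRSS1, the maltase-glucoamylase paralog gene MGAM2 was lower (-1.41), CASP2 was higher (0.53), and TMEM139 was lower (-0.15) with a call lost under DESeq2.

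Markers of the colon epithelium and of goblet cells changed in both directions, by edgeR's adjusted p. CDX2, the intestinal homeobox factor, fell from 21.7 to 4.95 CPM (log2 fold change -2.13, SE 0.09, adjusted p = 2.44e-20) and CDH17, an intestinal cadherin gene, fell by 1.34, while the keratin genes KRT8 and KRT18 rose by 0.43 and 0.24. CDH1 fell by 0.39, and VIL1 had -0.09 with a call lost in several alternatives. Among goblet and secretory markers, 3 of 7 tested passed (TFF3 -0.98, CREB3L1 -0.84 and, with overlapping groups and chosen after its values were seen, MUC2 0.66), and the summed level of the 15 listed was 37.5 to 43.5 CPM in shCtrl and 30.4 to 31.8 in shRBM39. LYZ (1.03), ACTA2 (1.15) and COL1A1 (0.81), from the leukocyte and fibroblast lists, were higher. The part of these markers in the trypsinogen result was not tested.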
